A study of Mus musculus with 9 samples.

Results

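The 10 genes described here encode GTPases that cells make in response to interferon-gamma: the guanylate-binding proteins Gbp2, Gbp3, Gbp4, Gbp5 and Gbp7, and the immunity-related GTPases Irgm1, Irgm2, Igtp, Iigp1 and Ifi47. They were chosen by name, as the rows whose gene symbol equals 1 of the 10, and all 10 were found among 45535 rows with a symbol. Their transcripts were measured by RNA sequencing in CD103+ dendritic cells from the lungs of C57/BL6j mice. The mice had received bleomycin, a drug that injures the lung and leads to fibrosis, and their lungs were collected at day 7. Lungs were digested with collagenase, and the cells were captured with magnetic beads. The group before culture (n = 5) was taken directly, and the group after culture (n = 4) was kept for 18 h in RPMI medium with serum and antibiotics. Bleomycin was common to both groups, no untreated lung enters the comparison, and the age and sex of the mice are not in the labels. Nothing in the labels says whether the samples came from separate mice, so p-values measure the spread between these samples, which may be technical.

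Interferon-gamma binds a receptor that signals through JAK kinases, and the signal switches on these GTPase genes, in part through the transcription factor IRF1. Guanylate-binding proteins are large GTPases that coat the vacuoles of intracellular bacteria and parasites, or the microbes themselves, and help caspases to detect them. Immunity-related GTPases are smaller. Those with an altered nucleotide-binding motif (Irgm1, Irgm2 and Igtp) hold the others (such as Iigp1 and Ifi47) inactive on the cell's own membranes, so that these effectors load onto pathogen vacuoles instead.

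After culture 8 of the 10 transcripts were higher, 1 was lower and 1 did not pass the test (limma, Benjamini-Hochberg adjusted p under 0.05 over 18202 genes). Gbp5 was 13.1-fold and Gbp2 9.99-fold higher, Gbp4, Gbp3, Irgm2 and Gbp7 were between 1.87-fold and 4.03-fold higher, and Iigp1 was 8.38-fold lower. Ifi47 and Irgm1 were 1.42-fold and 1.32-fold higher, and Igtp had the same mean in both groups within its error. The culture period moved much of the transcriptome: 68.8% of tested genes passed the same test, 34.2% as higher and 34.6% as lower. The median log2 fold change was 0.95 over the 10 genes and 0.0065 over all tested genes. With GC content and transcript length adjusted for, these medians were 0.69 and 0.019, and 6 of the 10 genes passed as higher. For 7 of the 10 the values of the groups did not overlap, against 57.3% of all tested genes; 6 of these were higher (28.7% of all tested genes) and 1 lower (28.6%). In RNA from bulk samples, fewer cells of a type and less RNA per cell cannot be told apart, so none of these values is a level per cell.

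The GTPase genes lie in clusters of related copies. In the GENCODE M21 annotation of build GRCm38, Gbp5 (chr3:142493978-142522344), Gbp7 (chr3:142530342-142550149), Gbp3 (chr3:142560026-142573209) and Gbp2 (chr3:142620602-142638008) follow each other on the plus strand of chromosome 3. Gbp4 (chr5:105115767-105139586) lies on the minus strand of chromosome 5, where its annotated span overlaps those of Gbp8 and Gbp9. On chromosome 11 lie Irgm1 (chr11:48861968-48871683, minus strand), Ifi47 (chr11:49076587-49096974, plus strand), Igtp (chr11:58199556-58207591, plus strand) and Irgm2 (chr11:58199618-58222782, plus strand). The spans of Igtp and Irgm2 overlap on the same strand. The location of Iigp1 is given with its values. Of the 50-base windows of their transcripts, 12.9% of Gbp7, 12.8% of Gbp4, 12.3% of Igtp and 7.30% of Irgm2 occur in another gene as well, and at most 4.79% of the other 6, so reads can be split between copies.

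The promoters are shown because interferon signals act through short motifs in them. RefSeq promoter windows (GRCm38.p6, 250 bases before to 50 after a RefSeq start) were found for 8 of the 10 genes. Gbp4 and Iigp1 had none, and there were 9 windows in all because Gbp3 has 2. A RefSeq start need not be the start of the GENCODE span given above. The windows of Gbp5 (chr3:142496684-142496983), Irgm2 (chr11:58214727-58215026) and Irgm1 and the second of Gbp3 lie inside the spans of their genes. Both strands were searched for the interferon-stimulated response element (GAAA, any 2 bases, GAAA, or TTTC, any 2 bases, TTTC on the other strand), which IRF factors bind, and for the gamma-activated site TTCNNNGAA, which reads the same on both strands. The first motif was in 7 of the 9 windows, in all but that of Ifi47 and the second of Gbp3, and in 3.44% of 32851 mouse promoter windows of the same length. The other motif was in 4 of the 9 (Gbp5, Gbp7, Igtp and Irgm2) and in 8.30% of all windows. A match is a description of the letters and not evidence of a bound site. The stretches around the response elements are given 5′ to 3′ on the gene's strand, with matches to either motif in capitals.
Gbp5 (chr3:142496709-142496808, plus strand): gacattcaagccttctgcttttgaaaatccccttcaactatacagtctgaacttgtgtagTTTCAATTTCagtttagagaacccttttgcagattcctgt
Gbp7 (chr3:142530223-142530322, plus strand): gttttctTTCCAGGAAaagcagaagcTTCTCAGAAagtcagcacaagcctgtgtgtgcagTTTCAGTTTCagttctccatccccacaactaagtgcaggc
Gbp3 (chr3:142559992-142560021, plus strand): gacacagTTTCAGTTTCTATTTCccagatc
Gbp2 (chr3:142620594-142620623, plus strand): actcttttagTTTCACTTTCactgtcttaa
Irgm1 (chr11:48871428-48871457, minus strand): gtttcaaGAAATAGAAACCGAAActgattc
Igtp (chr11:58199462-58199555, plus strand): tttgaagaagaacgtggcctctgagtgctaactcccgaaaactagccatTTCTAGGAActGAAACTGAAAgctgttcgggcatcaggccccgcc
Irgm2 (chr11:58214853-58214952, plus strand): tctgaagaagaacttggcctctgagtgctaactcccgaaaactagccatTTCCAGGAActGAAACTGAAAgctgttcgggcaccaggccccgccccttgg
In the Gbp3 and Irgm1 stretches 2 overlapping response elements share 4 bases. The Gbp7 stretch holds 2 gamma-activated sites, and the 2 of the Gbp5 window fall outside the stretch shown. Igtp and Irgm2 carry the site next to the element, and over 100 bases aligned on the element without gaps 96 are identical between these neighbours. The Gbp2 and Irgm1 stretches overlap exons of those genes in GENCODE M21, and the other 5 stretches overlap none.

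Gbp5, which promotes assembly of the NLRP3 inflammasome in macrophages, had normalized counts of 563, 548, 609, 552 and 533 in replicates 1 to 5 before culture and of 7246, 6649, 8944 and 6495 in replicates 1 to 4 after. A normalized count is a read count divided by 1 factor per sample. Every sample after culture lay above every sample before it, and replicate 3 was the highest after culture. The means were 561 ± 28.8 (SD, n = 5) and 7334 ± 1121 (SD, n = 4), and the log2 fold change was 3.70 (SE 0.0932, limma adjusted p = 3.80e-12). All such changes were computed from log2(value + 1). A rise at least as large was seen in 117 of the tested genes, or 0.643%.

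Gbp2, which is prenylated and recruited to pathogen vacuoles, had normalized counts of 946, 1119, 1134, 1145 and 845 before culture and of 10666, 10125, 10656 and 10019 after. The 4 samples after culture were close to each other and far above all 5 before culture. The mean rose from 1038 ± 135 (SD, n = 5) to 10367 ± 343 (SD, n = 4), a log2 difference of 3.33 (SE 0.0934, limma adjusted p = 7.35e-12).

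Gbp4, the member from the chromosome 5 cluster, had normalized counts of 619, 704, 587, 1205 and 639 before culture and of 3016, 2334, 4281 and 2484 after. Replicate 4 before and replicate 3 after culture stood above the rest of their groups, and the groups did not overlap. The means were 751 ± 258 (SD, n = 5) and 3029 ± 885 (SD, n = 4), and the log2 difference was 2.02 (SE 0.210, limma adjusted p = 1.54e-06). Gbp3, a member of the chromosome 3 cluster, had normalized counts of 372, 444, 427, 471 and 415 before culture and of 1464, 1404, 1577 and 1282 after. Its groups were also apart, with means of 426 ± 36.7 (SD, n = 5) and 1432 ± 123 (SD, n = 4). The log2 fold change was 1.75 (SE 0.0909, limma adjusted p = 1.67e-09).

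Gbp7, which has been linked to assembly of the phagocyte NADPH oxidase, had normalized counts of 934, 1078, 1015, 1122 and 854 before culture and of 1889, 2111, 1893 and 1590 after. The lowest sample after culture was above the highest before it. This was the smallest rise among the 5 guanylate-binding proteins described, a log2 difference of 0.90 (SE 0.10, limma adjusted p = 3.06e-06) from 1001 ± 108 (SD, n = 5) to 1871 ± 214 (SD, n = 4), and it was 0.53 when values were adjusted for GC content and length.

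Among the regulatory GTPases, Irgm2 had normalized counts of 609, 726, 652, 845 and 587 before culture and of 1334, 1619, 1360 and 1168 after. Its groups did not overlap, and the mean rose from 684 ± 104 (SD, n = 5) to 1370 ± 187 (SD, n = 4). The log2 fold change of Irgm2 was 1.00 (SE 0.119, limma adjusted p = 5.45e-06). Irgm1, which localises to the Golgi and to endolysosomal membranes, had 1122, 1359, 1262, 1739 and 1224 before culture and 1812, 2264, 1494 and 1495 after. Replicate 4 before culture lay above replicates 3 and 4 after culture, so the groups overlapped. The log2 fold change of Irgm1 was 0.39 (SE 0.141, limma adjusted p = 0.0241), with means of 1341 ± 238 (SD, n = 5) and 1766 ± 364 (SD, n = 4). This call was lost when values were adjusted for GC content and transcript length (0.14, limma adjusted p = 0.38), and without replicate 1 (0.062) or replicate 5 (0.0526) before culture or replicate 1 (0.0598) or replicate 2 (0.0828) after culture. Its adjusted p lay between 0.00318 and 0.0828 when each of the 9 samples was omitted in turn.

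Igtp, also called Irgm3, had normalized counts of 605, 762, 721, 811 and 643 before culture and of 731, 872, 670 and 563 after. The values of the groups were interspersed, and the means were 708 ± 84.7 (SD, n = 5) and 709 ± 129 (SD, n = 4). The log2 fold change was −0.0086 (95% interval −0.28 to 0.26, limma adjusted p = 0.957), so a change within these bounds remains compatible with these samples.

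The effector GTPases went in opposite directions. Iigp1, also called Irga6, lies on chromosome 18 and encodes a protein that loads onto vacuoles of Toxoplasma gondii. It had normalized counts of 514, 811, 491, 1368 and 539 before culture and of 80.4, 78.8, 121 and 75.3 after. All 4 samples after culture were below all 5 before culture, and replicate 4 stood highest before culture. Iigp1 fell from 745 ± 372 (SD, n = 5) to 88.9 ± 21.5 (SD, n = 4), a log2 difference of −2.96 (SE 0.268, limma adjusted p = 4.02e-07). A fall at least as large was seen in 3.69% of tested genes. Ifi47, also called Irgd, had 555, 735, 656, 838 and 687 before culture and 999, 1229, 877 and 829 after. Only the ends of its ranges crossed, since replicate 4 before culture exceeded replicate 4 after culture. The mean of Ifi47 rose from 694 ± 104 (SD, n = 5) to 983 ± 179 (SD, n = 4), a log2 difference of 0.50 (SE 0.132, limma adjusted p = 0.00423). With GC content and length adjusted for it was 0.23 and did not pass (limma adjusted p = 0.121).

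**Figure D1:**
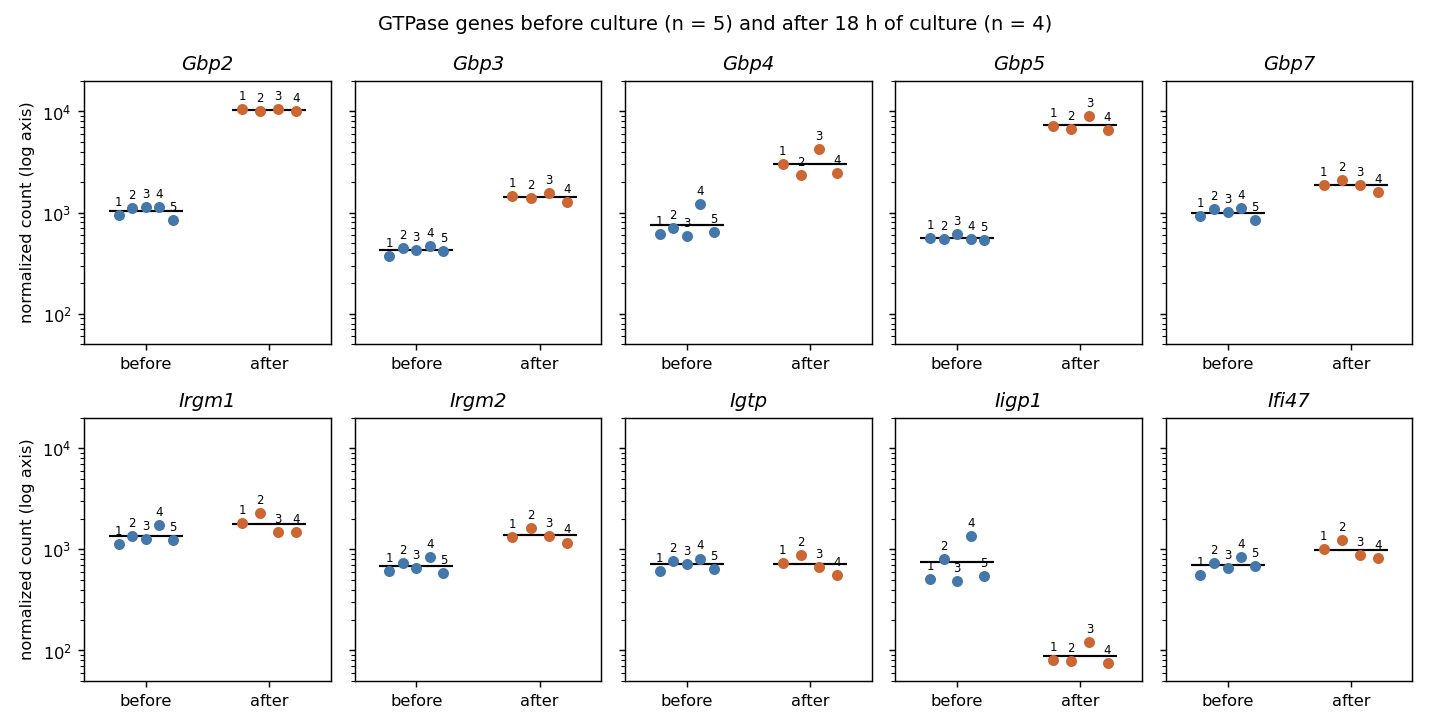
Normalized counts of the 10 GTPase genes on a log axis, 1 point per sample with its replicate number, before culture (n = 5) and after 18 h of culture (n = 4), with a line at each group's mean. The groups stand apart for Gbp2, Gbp3, Gbp4, Gbp5, Gbp7, Irgm2 and Iigp1, and overlap for Irgm1, Igtp and Ifi47.

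Members that follow each other on a chromosome were compared by the log2 ratio of the genes of a pair within each sample. There were 6 pairs of consecutive members, some with other genes or long distances between them, chosen after their values were seen. Each was compared with an exact two-sided permutation test, in which 0.0159 is the smallest p that 5 against 4 samples allow. A change in ratio is the difference between the log2 fold changes of the pair's genes given above, and some genes are in more than 1 pair. The p-values of the pairs are therefore a description and no separate evidence. The log2 ratio of Irgm2 to Igtp went from −0.055 ± 0.0886 (SD, n = 5) to 0.96 ± 0.0925 (SD, n = 4), a difference of 1.01 (exact permutation p = 0.0159, Benjamini-Hochberg adjusted over the 6 pairs 0.019). Irgm2 and Igtp were thus at about equal counts before culture, and Irgm2 was higher in all 4 samples after it. Because the annotated spans overlap, how the authors' counting split reads of this pair bears on the ratio, and this was not tested.

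The ratio of Igtp to Ifi47 fell by 0.51 on the log2 scale, and that of Ifi47 to Irgm1 had a difference of 0.11 that did not pass (exact permutation p = 0.0952, adjusted 0.0952). On chromosome 3 the log2 ratio of Gbp7 to Gbp5 went from 0.83 ± 0.158 (SD, n = 5) to −1.97 ± 0.243 (SD, n = 4), a difference of −2.79. Gbp3 rose against Gbp7 by 0.84, and Gbp2 rose against Gbp3 by 1.58, both on the log2 scale. All pairs but Ifi47 with Irgm1 reached the smallest exact permutation p, 0.0159 (adjusted 0.019), with no overlap between groups.

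Levels of different genes were compared as normalized counts per kilobase of the longest protein-coding transcript. On that scale the summed level of the 10 transcripts was 2867 ± 460 (SD, n = 5) before and 10159 ± 729 (SD, n = 4) after culture, a ratio of 3.54. Before culture Irgm1 had the highest level per kilobase, 594, above Gbp2 at 413, and these ranges did not overlap. Then came Ifi47, Igtp, Iigp1, Irgm2, Gbp5, Gbp7, Gbp4 and Gbp3, from 392 down to 159 per kilobase, and each overlapped with its neighbour in the order.

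After culture the order of levels per kilobase was led by Gbp2 at 4120 and Gbp5 at 2401, each apart from the next. Irgm1 (782), Gbp4 (667), Ifi47 (555) and Gbp3 (534) formed a run of overlapping levels per kilobase, followed without overlap by Irgm2 (388), Igtp (351) and Gbp7 (333). Iigp1 came last at 28.5 per kilobase, below every other member. Gbp2 and Gbp5 together made up 21.02 ± 2.38% (SD, n = 5) of the summed level per kilobase before culture and 64.2 ± 2.57% (SD, n = 4) after. The share of Irgm1 went from 20.7% to 7.71% and that of Iigp1 from 8.02% to 0.279%.

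**Figure D2:**
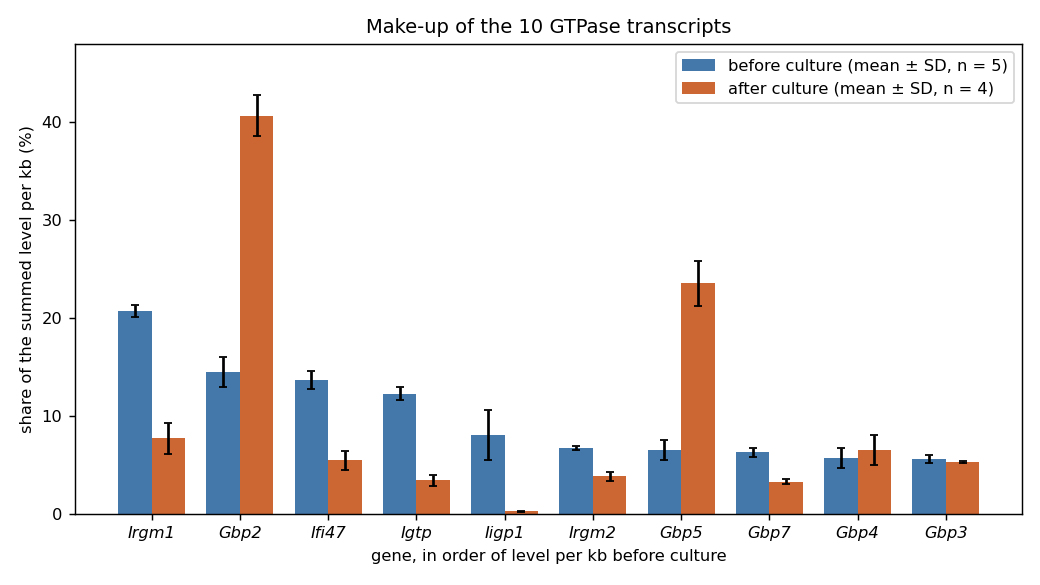
Share of each gene in the summed normalized counts per kilobase of the 10 GTPase transcripts, in percent, as bars of the mean with SD before (n = 5) and after culture (n = 4), ordered by level before culture. The bars of Gbp2 and Gbp5 are taller after culture, reaching 40.7% and 23.6%, while that of Iigp1 shrinks to 0.279%.

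The members also varied together among samples of the same group, and in more than 1 pattern. Before culture replicate 4 was the highest sample for 9 of the 10 genes, all but Gbp5, and by most for Iigp1 and Gbp4, at 1.00 and 0.74 above their group means on the log2(value + 1) scale. After culture replicate 3 was the highest for Gbp3, Gbp4, Gbp5 and Iigp1, with Gbp4 0.54 and Iigp1 0.47 above the group mean. Replicate 2 was the highest after culture for Gbp7, Irgm1, Irgm2, Igtp and Ifi47, with Irgm1 0.38 and Igtp 0.32 above the mean. Replicate 4 was the lowest after culture for 8 of the 10. How often each sample was the highest or lowest over all tested genes was not counted. In other lists, replicate 4 before culture was the highest for 10 of 16 related GTPases and the lowest for 10 of 19 other interferon-gamma-induced genes. The interferon-gamma transcript Ifng was highest in the same samples as Iigp1 and Gbp4, replicate 4 before culture and replicate 3 after culture. Of 18 type I interferon response genes, 17 were highest after culture in replicate 2 and 16 were lowest in replicate 3.

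**Figure D3:**
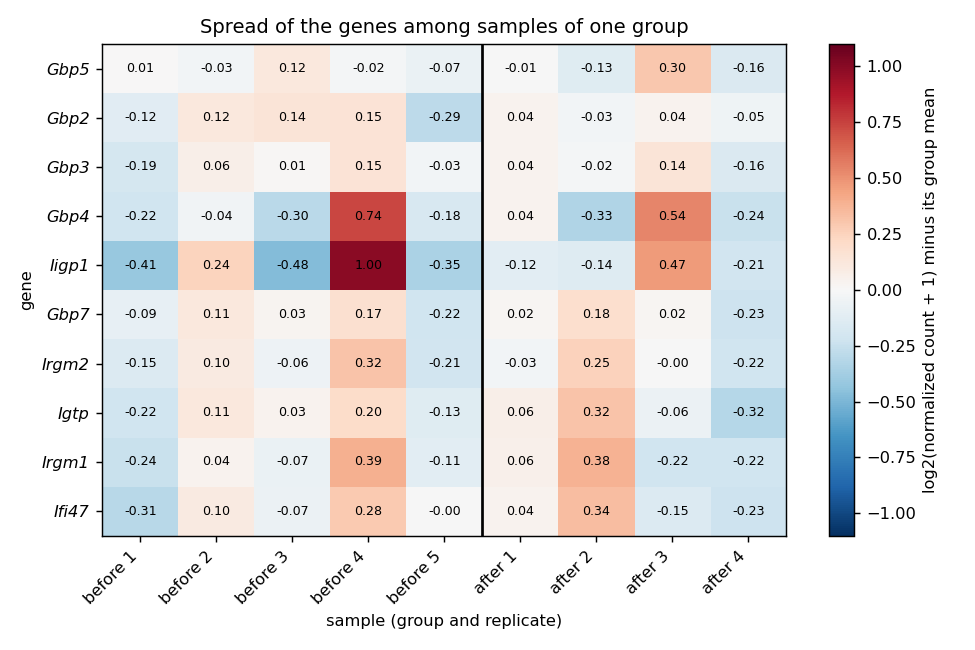
Difference of each GTPase gene in each sample from its own group mean, on the log2(normalized count + 1) scale, with samples as columns (5 before and 4 after culture) and red above the mean. Replicate 4 before culture and replicate 3 after culture are highest for Iigp1 (1.00 and 0.47) and Gbp4 (0.74 and 0.54), and replicate 2 after culture is highest for Irgm1 (0.38).

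Genes with the most similar pattern were ranked by Pearson's r between their values, with group means removed, and the mean of the 10 members, over the 9 samples and among 11776 genes with a mean of at least 100. The 5 nearest were Mndal (r = 0.955), Zfp53 (0.950), Dcbld2 (0.949), Ifi213 (0.947) and Dlg5 (0.946). As the highest of 11776 values over only 9 samples, such r can arise by chance, and this was not tested. Mndal and Ifi213 encode interferon-inducible PYHIN proteins. Between the groups Ifi213, Zfp53 and Dcbld2 were higher after culture (log2 fold changes of 0.81, 1.21 and 1.13, limma adjusted p = 0.000508, 3.42e-06 and 2.18e-06), whereas Mndal (0.15, limma adjusted p = 0.201) and Dlg5 (−0.24, 0.0612) did not pass. By the same measure the 6 pairs among Irgm1, Irgm2, Igtp and Ifi47 had r from 0.856 to 0.959 over the 9 samples. The 45 pairs of members had r from −0.335, between Gbp5 and Irgm1, to 0.959, with a median of 0.535, and all values share the same libraries and scaling factors.

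Of 20 related GTPase genes listed, 18 were found by symbol and 16 were tested. After culture 11 were higher and 2 lower, beside 34.2% and 34.6% of all tested genes, with a median log2 fold change of 0.80. Gbp2b, between Gbp3 and Gbp2 on chromosome 3, had 0 to 10.5 normalized counts before culture and 114 to 156 after (log2 fold change 4.91, SE 0.567, limma adjusted p = 4.40e-06). Gbp8, next to Gbp4, rose from 149 ± 31.4 (SD, n = 5) to 940 ± 226 (SD, n = 4), and Gbp9 from 901 ± 120 to 1573 ± 328. Other genes hold 21.2% of the windows of Gbp8 and 9.56% of Gbp9, and both spans overlap that of Gbp4, so reads can be split between them. Gbp10 (7.70 ± 2.72, n = 5, and 2.32 ± 1.58, n = 4, SD) and Gbp11 (11.4 ± 4.31 and 3.91 ± 1.89) were under the minimum mean of 10 over all samples and were not tested. Their normalized counts did not overlap between groups, but rest on only 0 to 19 reads per sample. Other genes hold 82.5% of the windows of Gbp10 and 34.5% of Gbp11. Gbp6 passed at 1.35-fold (limma adjusted p = 0.0367), but not in edgeR (0.0651), in DESeq2 (0.0521) or under the GC and length correction (0.324), nor in 7 of 9 fits that each omitted a sample. Of its windows, 90.2% occur in other genes.

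Among related immunity-related GTPases, Tgtp1 was 4.64-fold, Gm5431 5.42-fold, Gm12250 2.40-fold, 9930111J21Rik1 1.73-fold and 9930111J21Rik2 1.63-fold higher. Other genes hold 47.6% of the windows of Gm5431, 79.3% of 9930111J21Rik1 and 52.6% of 9930111J21Rik2, so their reads can also be split between copies. Tgtp1 shares 91.4% of its windows, mostly with Tgtp2, which did not pass (log2 fold change 0.23, limma adjusted p = 0.213) but did with the block by library name (0.0424) or without replicate 4 before culture (0.0278), so the division between these copies is uncertain. F830016B08Rik, like Iigp1 on chromosome 18, was lower as well (−1.14, limma adjusted p = 0.00388), from 40.3 ± 7.88 (SD, n = 5) to 18.9 ± 9.36 (SD, n = 4). Irgq, a divergent member of the family, had a log2 fold change of −0.22 (limma adjusted p = 0.0439) that turned to 0.25 under the GC and length correction (limma adjusted p = 0.00703) and did not pass in 7 of 9 fits that each omitted a sample. Gm12185 did not pass (0.08, limma adjusted p = 0.821).

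Large interferon-inducible GTPases of other families gave mixed values. Mx1, a dynamin-like GTPase gene, rose 3.52-fold (log2 fold change 1.81, SE 0.149, limma adjusted p = 1.60e-07). Mx2 did not pass (−0.62, limma adjusted p = 0.0578), but passed as lower with the block by library name (0.0137), the GC and length correction (0.0459), sample weights (0.0434) and the fits without replicate 2 before (0.0296) or replicate 2 after culture (0.00418). Gvin1, a very large GTPase, was 2.81-fold higher, and 99.2% of its windows occur in other genes.

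**Figure D4:**
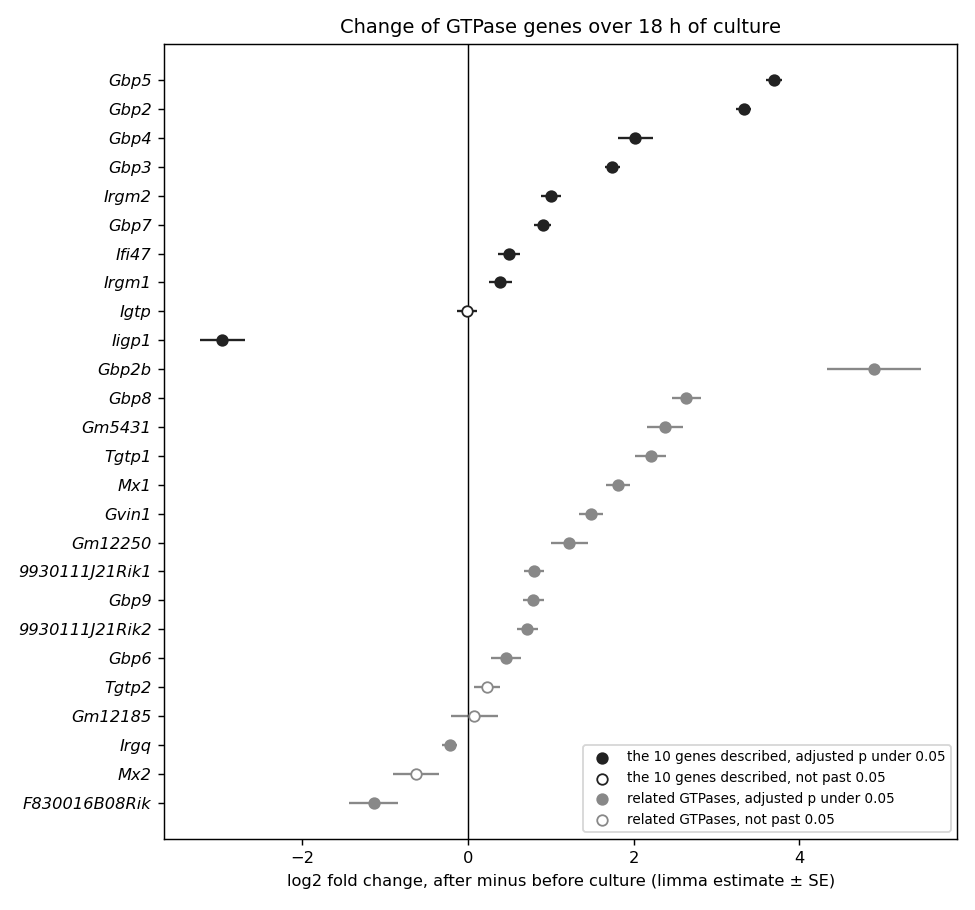
Log2 fold changes after minus before culture (limma estimate with SE) of the 10 GTPase genes described (black) and 16 related GTPases (grey), filled where the adjusted p is under 0.05. Gbp2b (4.91) and Gbp5 (3.70) lie farthest to the right and Iigp1 (−2.96) farthest to the left.

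Of 15 tested ligand, receptor and signalling genes upstream of the GTPases, 6 were higher, 4 lower and 5 not past the threshold. Over all tested genes 34.2% were higher and 34.6% lower, so these counts are near the general share. The median log2 fold change was 0.11 (8 higher and 5 lower under the GC and length correction). Ifng had normalized counts of 108, 121, 165, 195 and 98.4 before culture and of 10.6, 6.82, 20.9 and 9.12 after. All samples after culture were below all before it, and the mean was 11.6-fold lower (log2 fold change −3.49, SE 0.305, limma adjusted p = 2.85e-07). Of the receptor chains, Ifngr1 was lower (10322 ± 630, n = 5, against 5586 ± 701, n = 4, SD; log2 fold change −0.89) and Ifngr2 higher (3008 ± 226 against 4052 ± 329; 0.43).

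The kinase gene Jak2 rose by 0.76 and Jak1 by 0.20 on the log2 scale, the latter not past the threshold with the sample number as a block (limma adjusted p = 0.0603). Irf1 (6070 ± 492 against 6563 ± 724) and the feedback inhibitor Socs1 (1222 ± 180 against 1231 ± 93.7) did not pass (limma adjusted p = 0.282 and 0.877). Under the GC and length correction both passed as higher, at 0.27 for Irf1 and 0.53 for Socs1. Socs3, an inhibitor of STAT3-coupled receptors, was 13.4-fold lower, and Irf8, which cDC1 development requires, 2.18-fold lower.

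Of 19 other interferon-gamma-induced genes tested, 7 were higher and 7 lower, near the share of all tested genes (34.2% and 34.6%). Their median log2 fold change was 0.10. Under the GC and length correction 11 were higher and 6 lower, with a median of 0.37, and Tap1 (0.37), Tap2 (0.53), Psmb9 (0.31) and Lgals3bp (0.52) were added to the higher genes. Ido1, which degrades tryptophan, rose 49.1-fold from 20.1 ± 7.56 (SD, n = 5) to 987 ± 158 (SD, n = 4), Cd274, which encodes PD-L1, 4.20-fold, and the proteasome activator subunit Psme2 2.97-fold. The T cell attractant Cxcl9 was 47.6-fold lower (552 ± 53.1 against 11.6 ± 4.42) and Cxcl10 7.17-fold lower. Also lower were Nos2 (14.7-fold), the master regulator of MHC class II Ciita (6.28-fold), Serpina3g (2.90-fold), Batf2 (1.83-fold) and Acod1 (1.76-fold). Batf2 did not pass after the GC and length correction (limma adjusted p = 0.076), nor Acod1 with the sample number as a block (0.0686).

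Type I interferon response genes had 10 of 18 tested genes higher and 1 lower, beside 34.2% and 34.6% of all tested genes. Their median log2 fold change was 0.76. It was 0.48 without replicate 2 after culture (9 higher, 2 lower) and 0.91 without replicate 3 after culture (11 higher, 0 lower). Without replicate 1 after culture 8 were higher. Oasl1 (3.66-fold), Usp18 (3.54-fold) and Oasl2 (4.55-fold) had the smallest adjusted p-values. Ifi44 was the lower gene, with a log2 fold change of −0.62 (limma adjusted p = 0.0274) that did not pass with quantile normalization (0.119) or without replicate 2 (0.0633) or 3 (0.0553) before or replicate 3 (0.0893) or 4 (0.0869) after culture.

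Genes that act with these GTPases moved in both directions, as did all tested genes, of which 34.2% were higher and 34.6% lower. The ubiquitin and ATG8 conjugation genes that direct them to vacuoles had 7 of 13 higher and 2 lower, with a median log2 fold change of 0.29. Trim21 was 2.22-fold, Atg5 2.05-fold and Traf6 1.84-fold higher, and Map1lc3a was 2.82-fold and Gabarapl2 1.19-fold lower. Of 6 prenylation genes, whose products attach, process or bind lipid anchors such as those of Gbp2 and Gbp5, Fnta and Pggt1b were higher (log2 fold changes of 0.56 and 0.66). Arhgdia (−0.35) and Rce1 (−0.29) were lower, but were at 0.22 and 0.09 after the GC and length correction, under which 5 of the 6 were higher and 0 lower.

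Of 8 inflammasome genes, 4 were higher (Casp1 2.68-fold, Gsdmd 2.01-fold, Casp4 and Pycard) and 3 lower, or 2 higher and 4 lower under the GC and length correction. The share of all tested genes was 34.2% higher and 34.6% lower. Casp4 was at 0.43 in log2 and at −0.07 after the GC and length correction, and Pycard, at 0.37, did not pass with it (limma adjusted p = 0.116). Nlrp3, the sensor gene whose assembly Gbp5 promotes, was 14.9-fold lower, Il1b 5.88-fold and Il18 1.92-fold. Aim2 did not pass in the uncorrected values and was lower (−0.33) after the correction.

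**Figure D5:**
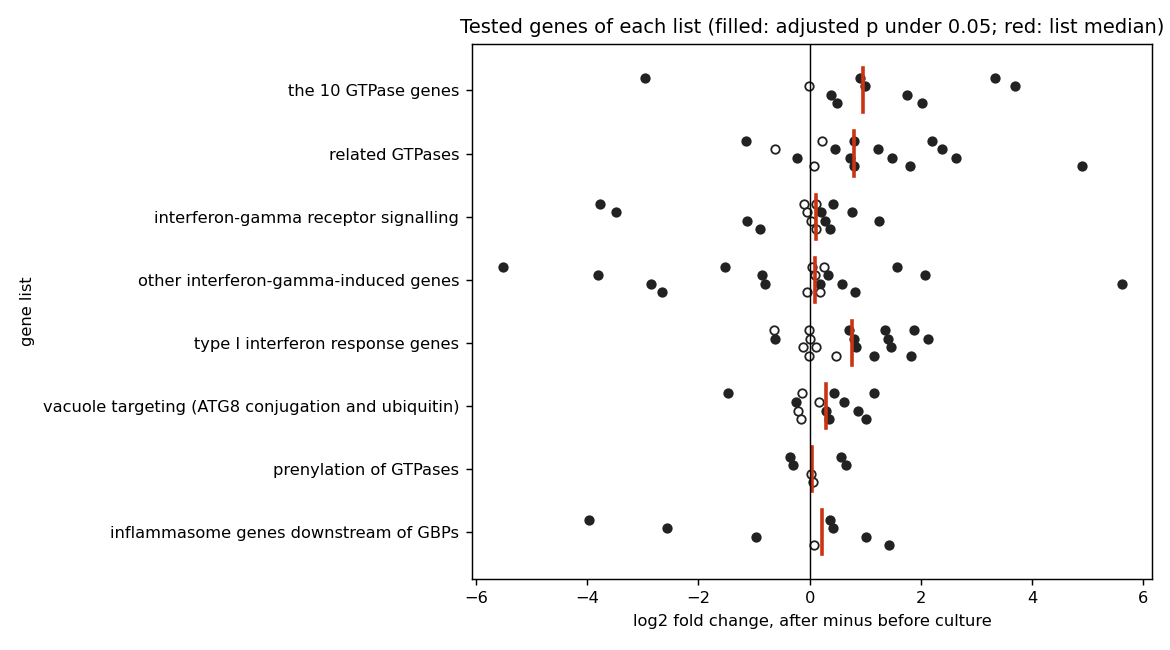
Log2 fold changes after minus before culture of the tested genes of each list, 1 point per gene, filled where the limma adjusted p is under 0.05, with a red bar at the list's median. The medians are 0.95 for the 10 GTPases, 0.80 for related GTPases, 0.11 for interferon-gamma receptor signalling, 0.10 for other interferon-gamma-induced genes and 0.76 for type I interferon response genes. Under the GC and length correction, which is not drawn, they were 0.69, 0.58, 0.17, 0.37 and 0.66 in the same order.

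The labels name the cells as CD103+ dendritic cells, while their extraction text speaks of RNA of total lung, and the cell type was checked against marker genes. All 10 markers of type 1 conventional dendritic cells were detected in every sample, and after culture 7 were lower and 3 higher, with summed normalized counts of 121489 to 149327 before and 29633 to 34492 after. Markers of other cells were present and most lists moved with culture: all 8 endothelial, 8 fibroblast and 8 alveolar epithelial markers were lower after culture (34.6% of all tested genes were). Their sums went from between 24569 and 35764 to between 3286 and 4320 for endothelial markers, from between 17234 and 30959 to between 2454 and 4804 for fibroblast markers, and from between 24791 and 40865 to between 4528 and 8320 for epithelial markers.

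Of 8 NK cell markers 7 were lower, with sums of 1661 to 3361 before and 362 to 555 after, and of 7 tested neutrophil markers 6 were lower and 1 higher (13106 to 22538 against 6905 to 14832, with Ly6g at 0 in every sample after culture). The higher neutrophil marker, Mmp8, rose from 401 ± 93.4 (SD, n = 5) to 9876 ± 3673 (SD, n = 4), and without it the neutrophil sums were 12721 to 21985 before and 813 to 1687 after culture. T cell markers were at sums of 8173 to 10005 before and 7282 to 9845 after (1 of 10 higher, 2 lower), macrophage and monocyte markers at 36824 to 58569 and 23615 to 45996 (5 of 10 lower), and B cell markers at 3234 to 5752 and 3868 to 5052 (2 of 6 higher, 1 lower). The part of these cells in the GTPase and Ifng values was not tested. Read totals over rows with a symbol were 14673818 to 28793443 before and 26003300 to 35286110 after culture.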

How the data were processed

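RNA sequencing of 5 samples before and 4 after culture was analysed, grouped by their sample titles. The authors deposited 1 table in which each gene has a normalized count per sample, treated here as a signal at or above 0. The submitters' processing notes name DESeq2 and GRCm38, while the aligner, counter, annotation and strandedness are not given in the sources used here. All values (100%) were whole multiples of 1 read's worth per column (tolerance 1e-06), 0.758 to 1.79 normalized counts, so whole reads were recovered. These steps match median-of-ratios size factors. The values are corrected neither for gene length nor for GC content. Of 49317 rows, 3782 carry no symbol and were left out (9.11 ± 1.64% of reads, SD, n = 5, in samples before culture and 4.57 ± 0.663%, SD, n = 4, in the others).

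Values were tested as log2(value + 1) with limma 3.58.1 (R 4.3.3, trend) for genes with a mean of at least 10, two-sided, with Benjamini-Hochberg adjustment over all 18202 genes and a threshold of 0.05. Folds are ratios of group means. On the recovered reads edgeR 4.0.16 called 12562 genes and DESeq2 1.42.0 called 12663, against 12524 in limma. Other alternatives were pseudocounts of 0.5 and 8, other filters and scalings, sample weights, replicate blocks, leaving out each sample, and a correction for GC content and transcript length. Lengths, locations and 50-base windows shared with other genes came from GENCODE M21, and promoters from RefSeq. GC content and length were matched for 96.5% of tested genes.

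The members and lists were chosen with earlier results of these data known. Named are all 10 members, all related GTPases tested, and in each other list up to 3 genes with the smallest adjusted p, every changed gene against the list's median, and Ifng, Ifngr1, Ifngr2, Irf1 and Socs1. A further gene that meets this rule is not reported here. The 5 genes most like the members were named by a set rule. Jak1, Jak2, Ido1, Psme2, Gsdmd, Casp4, Pycard, Aim2, Tap1, Tap2, Psmb9, Lgals3bp and Mmp8 were named after their values were seen. The fits were checked on simulated counts in which 200 genes changed, far fewer than the 12524 called here. At a simulated dispersion (spread between samples) of 0.02 limma found 193 of the 200, with 3.5% of its calls false. At 0.1 it found 135, with 5.59% false. The check does not cover data in which most genes change. Totals per sample are read counts without molecular identifiers. Tables were handled in Python 3.11.15 with pandas 2.3.3, permutation tests used SciPy 1.17.1, and figures used matplotlib 3.10.9.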

Additional observations from a re-analysis of the deposited data

Results flagged for a closer look

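In 5 of 52 checks of the 26 GTPase genes (each gene in each group), 1 sample lay far from the rest of its group by Dixon's criterion, where chance gives about 5% of groups, or 2.6. Before culture, Gbp4 in replicate 4 had a normalized count of 1205, above 587 to 704 in the other 4 samples. In the same sample Gm12185 was at 210.1, above a lowest value of 63.9 in its group. After culture, replicate 3 stood out for Iigp1 at 121.0, against 75.3 to 80.4 in the other 3 samples, and for Gbp9 at 2063, against a group minimum of 1383. The gene 9930111J21Rik1 was low in replicate 1 after culture, at 989.3, where the highest sample reached 1184. Without replicate 4 before culture Gm12185 passed the test as higher (log2 fold change 0.38, limma adjusted p = 0.0486).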

How the results depend on the processing

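Gbp2, Gbp3, Gbp4, Gbp5, Gbp7, Irgm2 and Iigp1 kept their direction and stayed past the threshold under all 13 alternatives with every sample and all 9 that left out 1. Irgm1 (log2 fold change 0.39) did not pass under the GC and length correction (0.14). Leaving out 1 sample moved it between 0.27 and 0.49, and it did not pass in 4 of these 9 fits. Ifi47 did not pass under the GC and length correction (0.23). The cause was not tested. The number of members higher was 6 to 8 and lower 1 throughout. The ratio of Ifi47 to Irgm1 passed without replicate 5 before culture (0.13, exact permutation p = 0.0286). All genes called ranged from 9925 (minimum mean 50) to 14150 (no filter). Quantile normalization split them into 7056 higher and 5768 lower, against 6225 and 6299.

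Replicate numbers in the titles did not pair samples: the correlations of deviations for the same number were 0.0807, 0.0796, −0.213 and −0.0403. With the number in the sample title as a replicate block Irgm1 was at 0.36 and did not pass (limma adjusted p = 0.0665), and 11646 genes were called. With the number in the library name as a block 12836 were called. Correlations for the same library number were 0.0807, 0.247, 0.349 and 0.0447, and each sample after culture correlated best with its own library number. With no filter on low values 18 related GTPases were tested, 11 of them higher and 3 lower, against 11 and 2 of 16.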

Other observations

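For 3 of the 10 genes, Gbp3, Gbp4 and Iigp1, the highest sample before and the highest after culture share a number in their library names, and for the other 7 they do not. Replicate 4 before culture and replicate 3 after culture both carry library number 4, and both were the highest of their group for Gbp3 (471 and 1577 normalized counts), Gbp4 (1205 and 4281), Iigp1 (1368 and 121) and Ifng (195 and 20.9). Replicate 3 before culture and replicate 2 after culture both carry library number 3. Of 18 type I interferon response genes, 12 were highest before culture in the first of these and 17 highest after culture in the second. Whether a shared library number stands for a shared source of cells is not in the labels. Beyond the correlations by library number given above, it was not tested.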
